A study of Homo sapiens with 16 samples.

Results

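H3K27ac peaks were examined at the loci of 9 genes whose products write, read or erase histone acetylation: the acetyltransferases EP300, CREBBP, KAT2A and KAT2B, the bromodomain protein BRD2, and the deacetylases HDAC1, HDAC2, HDAC3 and SIRT1. They are 9 of 19970 protein-coding genes on the autosomes and X. A peak was counted for a gene when its q-value was at most 1% and it lay in the gene body or within 10 kb on either side, a stretch called the gene window here. The windows held 53 to 78 peaks per library, which joined across libraries into 182 merged regions of 170159 in the series, a merged region being a stretch of overlapping or touching peaks.

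The data came from chromatin immunoprecipitation of K562, a human erythroleukemia cell line, with 1 anti-H3K27ac antibody. Chromatin was dispensed at 7 amounts from 0.31 to 20 µg, each about 2 times the one before, measured as the DNA it contained. In the fixed antibody arm, 7 libraries received 0.25 µg of antibody each, so the titer (antibody per chromatin, set to 1 at 10 µg) ran from 32 at 0.31 µg down to 0.5 at 20 µg. In the normalized arm, 7 libraries received antibody in proportion to chromatin, at titer 1 throughout. The cells were untreated, and the labels name no replicate cultures. There were 2 input libraries, and the sources used here do not say which of them served as control for which arm. Each condition was a single library, so p-values below rest on trends across 7 libraries or on 6 matched pairs, and titer cannot be told apart from chromatin amount within the fixed antibody arm. The 10 µg reactions had the same titer and amount in both arms and served as a reference. The files used here were peak lists, which hold no read counts, and sequencing depth was not analysed here. The lists held 64083 to 82143 peaks. All 10 erythroid and K562 marker genes that were checked, among them GATA1, TAL1 and the embryonic globin gene HBE1, had a peak in their windows in all 14 lists, and the B-cell gene MS4A1 had none in any. GFAP and MYT1, markers of other lineages, also had a peak in their windows in all 14 lists, CD3E had one in 12 lists and ALB in 4.

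Acetylation of histone H3 at lysine 27 marks active promoters and enhancers. EP300 and CREBBP, a pair of paralogous coactivators, place most of this mark. KAT2A and KAT2B, another paralogous pair, are catalytic subunits of the SAGA and ATAC coactivator complexes and act mainly on other lysines of H3. BRD2 is a BET protein that binds acetylated histones through its bromodomains. HDAC1 and HDAC2 remove acetyl groups within the Sin3, NuRD and CoREST complexes, HDAC3 does so within NCoR corepressor complexes, and SIRT1 is an NAD-dependent deacetylase. The peaks describe acetylation at the genes that encode these proteins, not the amount or activity of the proteins.

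The promoters of 4 members are shown to compare base composition at the ends of the ranking of promoter peaks and in the EP300/CREBBP pair. HDAC2 had the highest mean rank of the peak within 1 kb of its start site, CREBBP the median and KAT2A the lowest. Each sequence is the 250 bases before the RefSeq start site (GRCh38.p14), written 5′ to 3′ on the strand of the gene, with CpG dinucleotides in capitals. The stretches are chr22:41092342-41092591 (plus strand) for EP300, chr16:3880714-3880963 (minus) for CREBBP, chr17:42121368-42121617 (minus) for KAT2A and chr6:113971149-113971398 (minus) for HDAC2.
EP300: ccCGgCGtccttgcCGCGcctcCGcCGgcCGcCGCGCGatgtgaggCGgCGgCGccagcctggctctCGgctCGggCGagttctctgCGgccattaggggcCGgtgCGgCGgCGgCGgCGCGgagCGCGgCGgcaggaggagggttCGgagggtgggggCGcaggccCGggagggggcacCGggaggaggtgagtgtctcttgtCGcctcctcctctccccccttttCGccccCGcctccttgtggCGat
CREBBP: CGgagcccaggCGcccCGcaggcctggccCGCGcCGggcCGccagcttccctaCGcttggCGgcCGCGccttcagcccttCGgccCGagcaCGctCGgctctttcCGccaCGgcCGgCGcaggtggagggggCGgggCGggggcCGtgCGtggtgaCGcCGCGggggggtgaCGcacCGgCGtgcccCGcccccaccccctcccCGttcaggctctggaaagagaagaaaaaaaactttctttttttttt
KAT2A: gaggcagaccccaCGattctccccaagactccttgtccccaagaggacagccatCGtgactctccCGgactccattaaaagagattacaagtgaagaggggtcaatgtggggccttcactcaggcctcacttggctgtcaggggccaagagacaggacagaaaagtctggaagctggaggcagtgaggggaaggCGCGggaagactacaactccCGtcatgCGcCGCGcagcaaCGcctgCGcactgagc
HDAC2: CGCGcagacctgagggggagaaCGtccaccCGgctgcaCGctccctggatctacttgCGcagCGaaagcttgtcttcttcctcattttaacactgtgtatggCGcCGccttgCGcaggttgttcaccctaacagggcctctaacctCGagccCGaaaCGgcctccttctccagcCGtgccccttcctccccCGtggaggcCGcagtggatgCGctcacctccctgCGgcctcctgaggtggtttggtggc
The EP300 stretch held 35 CpGs and 76.8% G+C, and the CREBBP stretch held 31 CpGs and 72.4% G+C. HDAC2 held 18 CpGs (63.2% G+C) and KAT2A 11 CpGs (58.8% G+C), against a median of 17 CpGs and 62.4% G+C over 13791 protein-coding promoters. These promoters lie at the outermost start site of their gene, and 1 autosome is left out of the set. KAT2A was thus the member with the fewest CpGs, and the other 5 members held 21 to 33. The GC box letters GGGCGG, searched on both strands, were present in 6 of 9 members (CREBBP, KAT2B, BRD2, HDAC1, HDAC3 and SIRT1) and in 56.0% of the 13791 promoters. The 3 matches in CREBBP lay between 121 and 59 bp before the start site, and 2 of them overlapped. CCAAT was found in HDAC1 (35.2% of the same promoters), the ETS core CCGGAA in BRD2 and HDAC1 (19.5%), and the E-box CACGTG in SIRT1 (7.87%). None of the 9 stretches held AGATAA (6.92%), TATAAA (9.64%) or TGACGTCA (2.41%). These matches describe letters in the window and were not compared with factor binding.

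Each member had an H3K27ac peak within 1 kb of its most upstream start site in all 14 lists. The same was true of 7857 of the 15811 genes with a matched start site, so this was common among genes in general. Of the 182 merged regions in the windows, 17 (9.34%) had a peak in every list, 77 (42.3%) in 2 to 13 lists and 88 (48.4%) in 1 list. Over the windows of all protein-coding genes, 16206 of 145065 merged regions (11.2%) had a peak in every list, so the share at the members was close to that of genes in general. Of the 17 shared regions, 11 lay at a start site of the member itself. Their median length was 3369 bp, against 504 bp for regions in 2 to 13 lists and 209 bp for regions in 1 list. The median of the highest fold enrichment (signal at the peak over the control estimated by the peak caller) was 15.1, 4.62 and 3.97 in these classes. Length joins the peaks of all lists and the highest fold enrichment is a maximum over them. Both therefore tend to rise with the number of lists by construction.

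**Figure D1:**
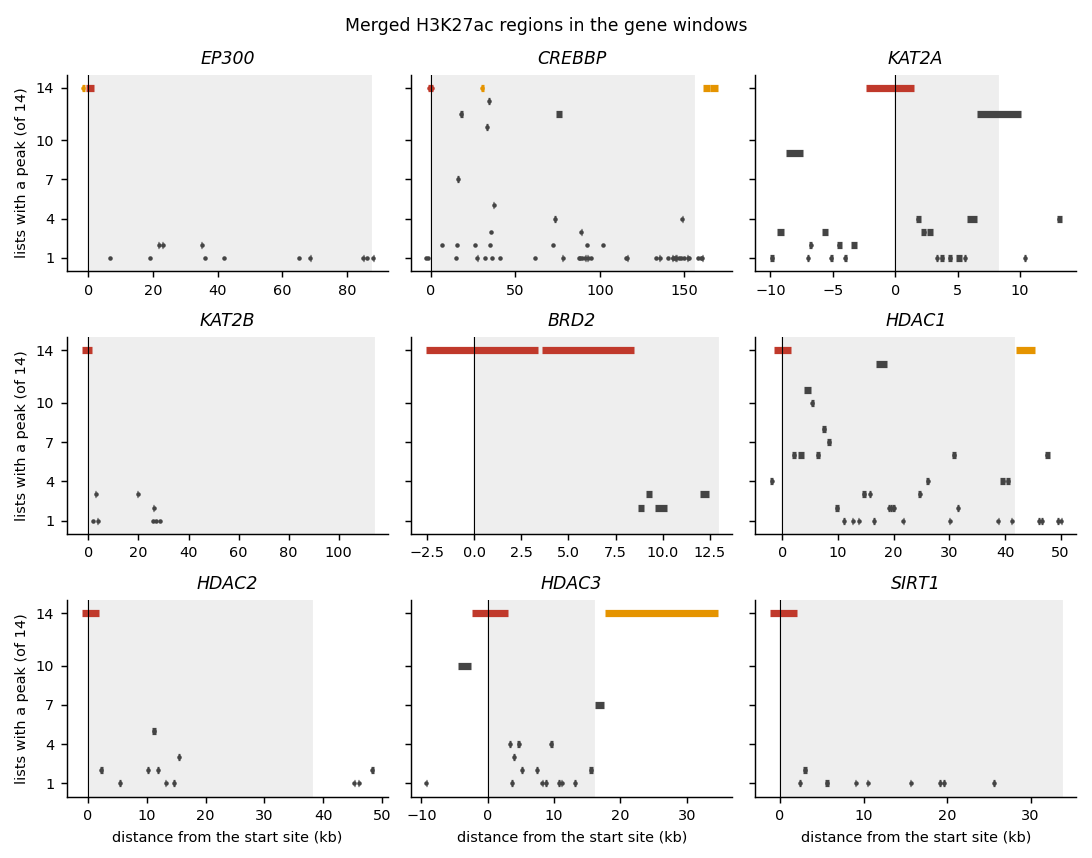
Merged H3K27ac regions in the 9 gene windows, by distance from the start site in kb (horizontal axis, positive into the gene) and by the number of the 14 peak lists with a peak there (vertical axis). Grey shading marks the gene body, red bars regions in all 14 lists at the gene's own start site, orange bars other regions in all 14 lists, and dark bars regions in fewer lists. The 17 shared regions sit on the top line, 11 of them red, and most of the others were found in few lists.

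Among the writers, the EP300 gene (chr22:41092592-41180077, plus strand) carried its shared signal at the 5′ end alone. A region at chr22:41091794-41094182 spanned the start site, and a second at chr22:41090498-41091449 lay 1143 to 2094 bp before it. The other 12 regions in the EP300 window were found in 1 or 2 lists, including those across its gene body of 87486 bp. EP300 summits lay 552 to 698 bp before the start site in all 14 lists. CREBBP (chr16:3725054-3880713, minus strand) had 54 regions, the most of the 9 members, in the longest window (175660 bp). Its promoter signal was split into chr16:3880886-3882269 and chr16:3879401-3880730, with the bases from 172 to 18 bp before the start site, inside the promoter stretch shown above, covered in no list. CREBBP also had a weaker shared region in its gene body, 29663 to 31220 bp after the start site (chr16:3849493-3851050), with fold enrichment of 3.22 to 5.38. The gene-body regions at chr16:3845933-3846658 and chr16:3803126-3806399 had peaks in 13 and 12 lists. The strongest CREBBP-window peak in most lists lay at the far end, in chr16:3715458-3719602, which holds the start site of TRAP1, a mitochondrial chaperone gene.

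KAT2A (chr17:42113111-42121367, minus strand) had a single shared region, chr17:42119821-42123688, which also holds the start site of the small heat shock gene HSPB9. KAT2B (chr3:20040446-20154404, plus strand) had a single shared region as well, chr3:20037735-20041983, and 8 others in at most 3 lists. A gene body of 113959 bp thus had no shared region in KAT2B beyond the promoter. The reader BRD2 (chr6:32968594-32981505, plus strand) had shared regions over much of its 5′ part, chr6:32966027-32971986 and chr6:32972218-32977073, the latter holding alternative start sites of the gene. Peaks covered 25.0% of the BRD2 window on average, against 2.30% for EP300 and 2.40% for KAT2B.

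Among the erasers, HDAC2 (chr6:113933028-113971148, minus strand) and SIRT1 (chr10:67884656-67918390, plus strand) had a single shared region each, chr6:113969169-113972211 and chr10:67883432-67886745, both at the start site. HDAC1 (chr1:32292083-32333626, plus strand) had a promoter region at chr1:32290590-32293680 and 36 regions in all, with gene-body regions at chr1:32308863-32310811 and chr1:32295911-32297177 in 13 and 11 lists. Its other shared region, chr1:32334034-32337402, holds the start site of MARCKSL1 beyond the 3′ end. HDAC3 (chr5:141620881-141636849, minus strand) had the longest shared region of the set, chr5:141602182-141619148 (16967 bp), which lies beyond its 3′ end and holds the start site of the formin gene DIAPH1. The HDAC3 promoter region, chr5:141633850-141639292, also holds the start site of RELL2, 148 bp away. Of the covered bases in the HDAC3 window, 30.7% came from peaks nearest to an HDAC3 start site. That share was 64.3% for HDAC1, 65.1% for CREBBP, 71.4% for KAT2A and 84.7% or more for the other 5, so window values of the former genes include signal of neighbours.

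Cover directly at the start site differed among members. The start base lay inside a peak in all 14 lists for EP300, KAT2B and HDAC2, in 12 lists for BRD2, 8 for KAT2A, 6 for HDAC3, 4 for HDAC1 and 1 each for CREBBP and SIRT1. Among the 7857 genes whose start site had a peak no more than 1 kb away in every list, the start base was covered in all 14 lists in 15.5% and in at most 1 list in 32.4%. CREBBP, HDAC1 and SIRT1 shared a dip at the start site. At most 2 lists covered the bases from 178 bp before to 1 bp after the start site in CREBBP, from 163 to 32 bp before it in HDAC1, and from 173 bp before to 50 bp after it in SIRT1. In EP300 the dip lay farther upstream, between its pair of shared regions. HDAC2 peaks reached mainly into the gene, with 980 bp downstream and 340 bp upstream covered in every list within 3 kb of the start site. EP300 showed the opposite asymmetry, with 940 bp upstream and 200 bp downstream.

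**Figure D2:**
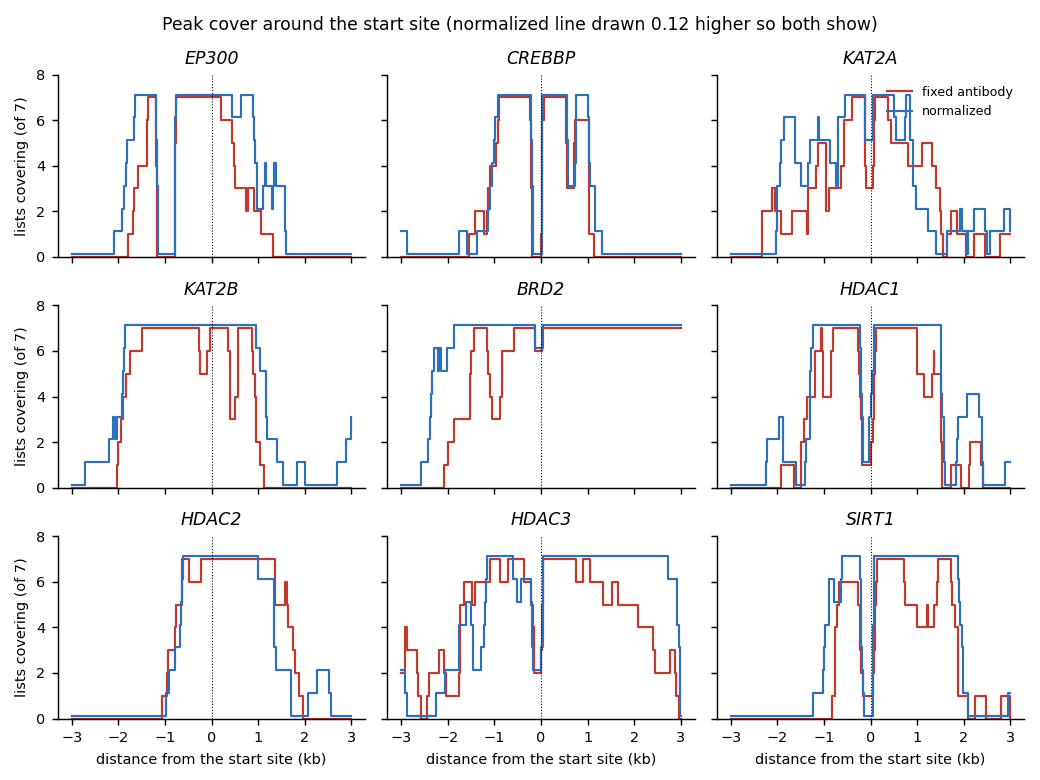
Number of peak lists covering each position (vertical axis, of 7 lists per arm) from 3 kb before to 3 kb after the start site of each member (horizontal axis, kb). Red lines are the fixed antibody arm and blue lines the normalized arm. CREBBP, HDAC1 and SIRT1 dip at the start site, covered in 1, 4 and 1 of 14 lists, while EP300, KAT2B and HDAC2 are covered there in all 14.

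The fixed antibody arm addressed whether signal at these loci changed with antibody titer. Covered length, the number of bases of the window inside peaks, fell with rising titer in 7 of 9 members (CREBBP, KAT2A, BRD2, HDAC1, HDAC2, HDAC3 and SIRT1), at an adjusted p under 0.05 in an exact two-sided permutation test of Pearson's r against log2 titer over 7 libraries, with Benjamini-Hochberg adjustment over all genes. The same call was made in 51.9% of 14563 genes tested. Over all genes the median r was -0.83, and over the members it was -0.89, so loss of cover at high titer was the majority behavior among the genes tested and was not particular to the members. Without the titer 32 library no member and 1678 genes were called, while 6 members had an unadjusted p under 0.05 in the exact permutation over 6 libraries, and without the titer 4 library 2 members and 2537 genes were called. With the gene body alone as the window, 1 member passed. KAT2A lost its call with the full deposited lists and at a −log10 q of at least 3, which left 6 members each, and at 5 or more HDAC1 lost its call and EP300 gained one.

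In the writers the trend was uneven. EP300 covered length was 1342 bp at the lowest, 2081 bp at the median and 2728 bp at the highest of the 7 fixed antibody libraries, with r = -0.53, p = 0.225, rho = -0.46, p = 0.302, adjusted p = 0.276 by the exact permutation test. The EP300 values of the low-titer and high-titer libraries overlapped. CREBBP ran from 6045 bp at titer 32 to 11434 bp at titer 1 and 10063 bp at titer 0.5 (r = -0.89, p = 0.00714, rho = -0.93, p = 0.00675, adjusted p = 0.023, exact permutation). Its slope was -836 ± 195 bp (SE) per doubling of titer. KAT2A rose from 1624 bp at titer 32 to 7148 bp at titer 1 and was 4334 bp at titer 0.5, so that the highest value was not at the lowest titer (r = -0.82, p = 0.0258, rho = -0.89, p = 0.0123, adjusted p = 0.0495, exact permutation). KAT2B stayed between 2112 and 3398 bp (r = -0.75, p = 0.056, rho = -0.86, p = 0.0238, adjusted p = 0.0869, exact permutation), a narrower range than that of its paralog.

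BRD2 was covered over 5690 bp at titer 32 and 8139 bp at titer 0.5, with a slope of -424 ± 67.2 bp (SE) per doubling (r = -0.94, p = 0.00357, rho = -0.96, p = 0.00278, adjusted p = 0.0165, exact permutation). HDAC3 had the steepest slope of the 9, -1390 ± 262 bp (SE) per doubling, from 5382 bp at titer 32 to 13259 bp at titer 1 (r = -0.92, p = 0.00556, rho = -0.89, p = 0.0123, adjusted p = 0.0202, exact permutation). The region beyond its 3′ end that holds the DIAPH1 start site was covered over 3815 bp at titer 32 and 13693 bp at titer 1. These lengths count also its bases outside the window, so its share of the change within the window is not given. The promoter region was covered over 2285 and 4884 bp. HDAC1 ran from 5208 bp to 11712 bp between titers 32 and 0.5 (r = -0.89, p = 0.0119, rho = -0.89, p = 0.0123, adjusted p = 0.0305, exact permutation). HDAC2 ran from 1892 to 3357 bp (r = -0.92, p = 0.00198, rho = -0.96, p = 0.00278, adjusted p = 0.013, exact permutation) and SIRT1 from 1353 to 2620 bp (r = -0.94, p = 0.00119, rho = -0.96, p = 0.00278, adjusted p = 0.0108, exact permutation). Leaving out the libraries at both ends of the titer range gave r of -0.77 to -0.99 for the 7 called members. The exact permutation p was then 0.0167 in KAT2A, HDAC3 and SIRT1. It was 0.05 in CREBBP, 0.0667 in BRD2, 0.0833 in HDAC2 and 0.133 in HDAC1. Counted over peaks nearest to the gene's own start site, the trends of CREBBP and HDAC1 were no longer called.

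**Figure D3:**
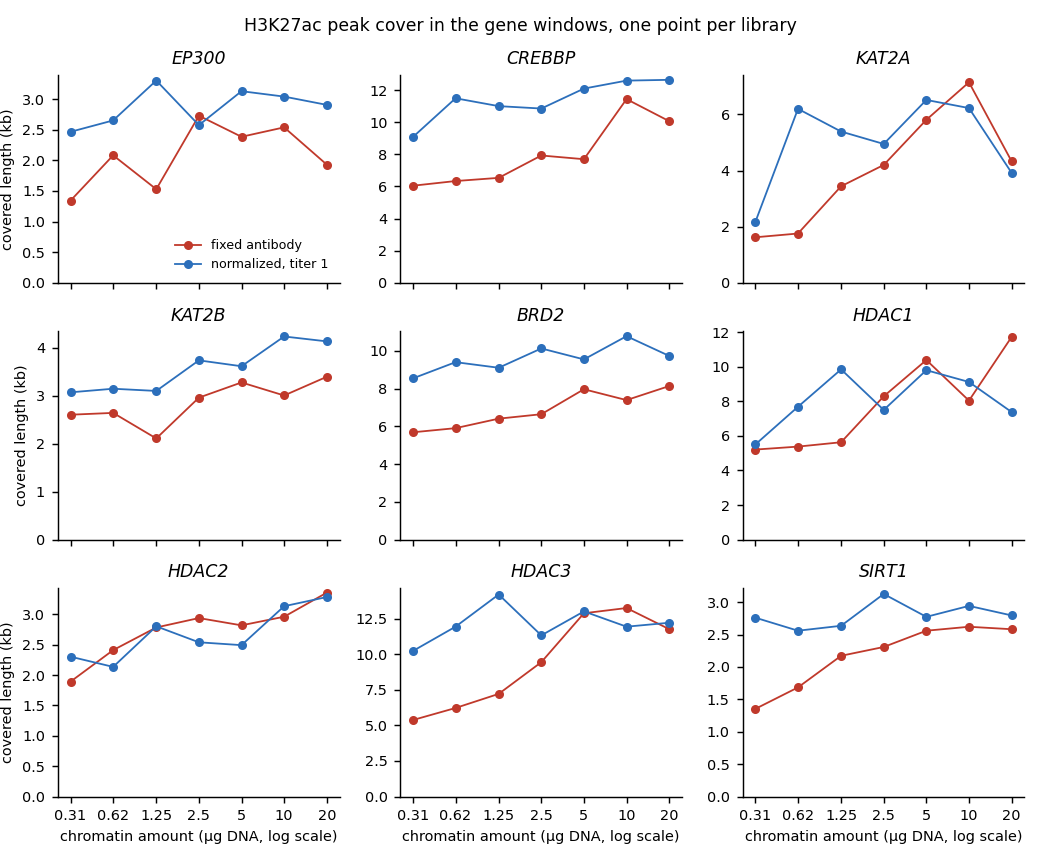
Covered length in kb (vertical axis, from 0) in each gene window against chromatin amount in µg of DNA (horizontal axis, log scale), with 1 point per library. Red points are the fixed antibody arm, whose titer falls from 32 to 0.5 from left to right, and blue points the normalized arm at titer 1. BRD2 is the member in which the arms do not overlap, with 5690 to 8139 bp against 8546 to 10781 bp.

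The fold enrichment of the strongest peak in the window fell with titer in 8 of 9 members, the exception being KAT2A, beside 75.6% of 12422 genes with a peak in all 7 libraries. EP300 declined at every step, from 17.5 at titer 0.5 to 15.1, 11.4, 10.2, 10.1, 7.37 and 6.96 at titers 1 to 32 (r = -0.98, p = 0.000397, rho = -1.0, p = 0.000397, adjusted p = 0.00632, exact permutation of log2 fold enrichment, where 0.000397 is the smallest p that 7 evenly spaced titers allow). At titers 4 and 16 the strongest EP300 peak was not the one at its start site. That start-site peak stood at 7.22 and 6.59 there and did not itself decline at every step. The strongest KAT2B peak, at its own start site in all 14 lists, also declined at every step, from 13.9 to 6.24 (r = -0.94, p = 0.000397, rho = -1.0, p = 0.000397, adjusted p = 0.00632, exact permutation). BRD2 fell from 14.8 to 6.85 (r = -0.97, p = 0.000794, rho = -0.96, p = 0.00278, adjusted p = 0.0068, exact permutation) and HDAC2 from 22.1 to 9.57 (r = -0.97, p = 0.000794, rho = -0.96, p = 0.00278, adjusted p = 0.0068, exact permutation). At titers 2, 8 and 32 the strongest BRD2 peak had its summit 4176 to 4351 bp after the first start site, near alternative start sites. The BRD2 values therefore switch between 2 peaks. The slopes of EP300, KAT2B, BRD2 and HDAC2 lay between -0.22 and -0.19 log2 units per doubling of titer. The other 4 called members, CREBBP, HDAC1, HDAC3 and SIRT1, had slopes of -0.17 to -0.15 and adjusted p of 0.014 to 0.0422 in the exact permutation test.

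KAT2A had its lowest value, 6.52, at titer 0.5, its highest, 11.4, at titer 1, and 7.09 at titer 32 (r = -0.39, p = 0.382, rho = -0.14, p = 0.783, adjusted p = 0.397, exact permutation). Without the titer 0.5 library the KAT2A trend was called. HDAC1 was 20.4 and 17.2 at titers 0.5 and 1 and 9.83 to 10.6 at titers 2 to 32, a step rather than a slope, and its strongest peak lay at its own start site in 6 of these 7 lists. Without both end libraries r was -0.66 to -0.96 for the 8 called members. The exact permutation p was then 0.0667 in CREBBP, 0.133 in HDAC1 and 0.233 in HDAC3. It was 0.0167 or 0.0333 in the others. In CREBBP the strongest peak of most lists was the one at the TRAP1 start site, so its values describe that neighbour as much as CREBBP. The calls of CREBBP, HDAC1, HDAC3 and SIRT1 were the ones lost when titer was taken on a linear scale, which left 4 members and 3421 genes. Leaving out the titer 2, 1 or 0.5 library left 5 members in each case.

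**Figure D4:**
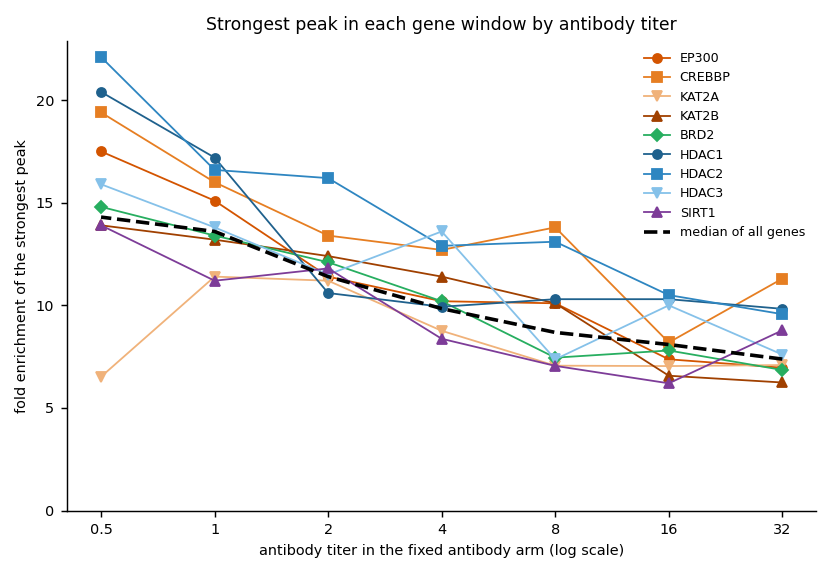
Fold enrichment of the strongest peak in each gene window (vertical axis, from 0) against antibody titer in the fixed antibody arm (horizontal axis, log scale), with 1 point per library. Colors and symbols mark the 9 members, and the dashed line is the median over 12268 genes with a peak in all 14 lists, which fell from 14.3 at titer 0.5 to 7.38 at titer 32. The members fall along with the median except KAT2A, which stands at 6.52 at titer 0.5.

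For the rank of the strongest peak within its own list, no trend with titer was called. The median r was -0.27 over all genes and -0.16 over the members. As a percentile of fold enrichment among all peaks of the list, the members' strongest peaks lay at 67.6 to 99.8 in the 14 lists. No member's percentile trend passed the adjusted threshold, nor did that of any of 12422 genes (0%), while 1 member, EP300 (r = -0.81, p = 0.0298, rho = -0.75, p = 0.0663, exact permutation, adjusted p = 0.392), and 1439 genes had an unadjusted p under 0.05. Those 1439 genes were 11.6% of the genes tested. The KAT2A library at titer 0.5 held the lowest percentile, 67.6.

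In the normalized arm, where titer was constant, no member was called for a trend with chromatin amount, in covered length or in fold enrichment, and the share over all genes was 0% of 14568 and 0% of 12921. The median r over all genes was nevertheless 0.53 for covered length and 0.38 for fold enrichment, and over the members 0.48 and 0.29. Values thus leaned upward with chromatin amount without passing the adjusted threshold. At an unadjusted exact permutation p under 0.05, 3 members and 2934 genes (20.1%) passed for covered length, and no member and 1537 genes (11.9%) for fold enrichment. Those 3 members were KAT2B (r = 0.93, p = 0.00794, rho = 0.89, p = 0.0123, exact permutation, adjusted p = 0.14), CREBBP (r = 0.87, p = 0.00972, rho = 0.86, p = 0.0238, exact permutation, adjusted p = 0.148) and HDAC2 (r = 0.84, p = 0.0206, rho = 0.82, p = 0.0341, exact permutation, adjusted p = 0.185). KAT2B covered 3074 bp at 0.31 µg and 4137 bp at 20 µg, and CREBBP 9077 and 12635 bp. EP300 spanned 2465 to 3302 bp in the normalized arm, and SIRT1 2559 to 3126 bp.

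At matched chromatin amounts, the normalized reaction had more covered bases than the fixed antibody reaction at all 6 amounts with differing titers in 5 of 9 members, beside 41.8% of 14827 genes with a peak. At 20 µg the fixed antibody reaction had the lower titer (0.5 against 1), and at the other amounts it had the higher. The 6 differences thus mix opposite titer contrasts, and their mean and test do not describe antibody excess alone. The mean difference was 3756 ± 1050 bp (SD, 6 amounts) in CREBBP, 3338 ± 2900 bp in HDAC3, 2618 ± 860 bp in BRD2, 665 ± 462 bp in SIRT1 and 636.2 ± 241 bp in KAT2B. For each of these 5 the exact sign-flip test gave its smallest possible p, 0.03125, and an adjusted p of 0.0736, so none passed the adjusted threshold, and the same held for every gene tested. Within 5 kb of the start site the mean differences of CREBBP and HDAC3 were 180 and 359 bp, and they were not higher at all 6 amounts (exact sign-flip p = 0.281 and 0.375). SIRT1 was likewise not higher at all 6 amounts with the full deposited lists, with stricter q-values or in the gene body alone (exact sign-flip p of 0.0625 to 0.0938). EP300 was higher at 5 of 6 amounts (838.7 ± 639 bp), the exception being 2.5 µg, and KAT2A at 5 of 6 (1331 ± 1700 bp), the exception being 20 µg. The mean was 183 ± 2920 bp in HDAC1 (exact sign-flip p = 0.9375) and -107.2 ± 299 bp in HDAC2 (exact sign-flip p = 0.5, higher in normalized at 2 of 6 amounts). Both signs turned under an alternative, to -189 bp for HDAC1 in the gene body and 25.3 bp for HDAC2 with the full deposited lists.

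The 10 µg pair, with the same titer in both arms, sets the scale for these differences. The normalized library had more covered bases there in 7 of 9 members and in 60.2% of the genes tested. In KAT2B the 10 µg difference was 1231 bp, larger than at any of the 6 amounts with differing titers (338 to 991 bp). In BRD2 it was 3386 bp, within the range of 1581 to 3496 bp at those amounts. In CREBBP it was 1152 bp, below the smallest of the 6 (2572 bp), and in HDAC3 it was -1312 bp. In SIRT1 it was 322 bp, larger than at 5 µg (214 bp) and 20 µg (213 bp). Differences between the arms and between their input controls cannot be told apart. The mean matched differences of KAT2B and BRD2 (636.2 and 2618 bp) were smaller than their differences at 10 µg.

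BRD2 was the member whose covered length in all 7 normalized libraries exceeded that in all 7 fixed antibody libraries (8546 to 10781 bp against 5690 to 8139 bp), beside 5.89% of 14881 genes. Within 5 kb of the start site the BRD2 arms overlapped. For the fold enrichment of the strongest peak, KAT2B was the member with separate arms, 14.1 to 20.6 with normalized antibody and 6.24 to 13.9 with fixed antibody, beside 5.17% of 12268 genes. At 10 µg the KAT2B values were 15.7 and 13.2.

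HDAC2 went the other way in rank. The percentile of its strongest peak was 97.1 to 99.5 (median 98.1) with a fixed antibody amount and 80.8 to 94.6 (median 90.2) with normalized amounts, with no overlap, a pattern found in 2.77% of 12268 genes. The separation of the HDAC2 percentile was present at the 10 µg pair too, 97.1 against 92.2, and it was kept with the full lists, with stricter q-values and within 5 kb of the start site. Its fold enrichment overlapped between arms, at 9.57 to 22.1 with the fixed amount and 8.54 to 13.4 with normalized amounts. HDAC1 and HDAC3 percentiles were higher in the fixed antibody library at 6 of 7 amounts each, with overlapping ranges. These did not compare the same peak throughout, since the strongest HDAC1 peak was the one at its own start site in 6 of 7 fixed antibody lists and in 1 of 7 normalized lists, and the strongest HDAC3 peak lay elsewhere in its window in 10 of 14 lists. A second measure took the strongest peak within 1 kb of a start site of the gene. Its percentile was higher with fixed antibody at 7 of 7 amounts in HDAC1 and 6 of 7 in HDAC3, again with overlapping ranges. By that measure CREBBP was higher at 6 of 7, KAT2A at 5 of 7, and EP300 and SIRT1 at 3 of 7 each, also with overlapping ranges. No share over all genes is given for these counts. The second measure could also switch between peaks. In CREBBP its summit lay before the start site in all 7 fixed antibody lists. It lay after the start site in the normalized lists at 2.5 to 20 µg. In HDAC1 summits lay on both sides of the start site in both arms. KAT2B and BRD2 had their strongest peak at their own start sites in all 14 lists, and their percentiles were higher with fixed antibody at 0 of 7 and 1 of 7 amounts. These comparisons between arms were chosen after their values were seen and are given without a test.

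**Figure D5:**
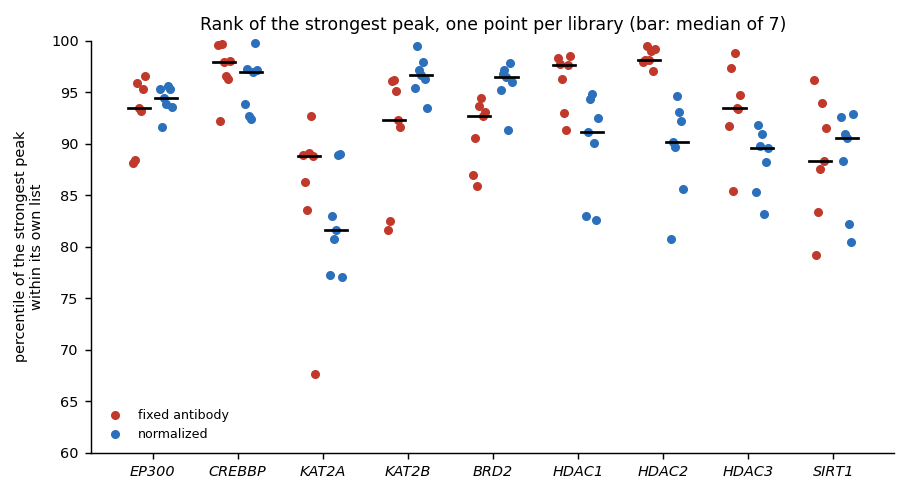
Percentile of the strongest peak of each gene window within its own peak list (vertical axis, drawn from 60 upward), with 1 point per library and a bar at the median of 7. Red points are the fixed antibody arm and blue points the normalized arm. HDAC2 is the member without overlap, with 97.1 to 99.5 against 80.8 to 94.6.

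The other genes of the pathway, counted by the same tests, fell with titer where they were called. Among 21 other writers and complex subunits, covered length fell with titer in 11 of 21 tested, and strongest fold enrichment in 17 of 21, beside 51.9% and 75.6% of genes in general. Among 18 other readers the counts were 4 of 15 tested for covered length and 12 of 14 for fold enrichment, and 3 readers had no peak in any list. Among 29 other erasers and corepressor subunits the counts were 23 of 29 and 28 of 29. No gene of these lists rose, and in the normalized arm none was called. In covered length, 10 of 21 writers, 6 of 15 readers and 14 of 29 erasers were higher in the normalized arm at all 6 amounts, beside the 41.8% of genes in general. Among the erasers, HDAC7, a class IIa deacetylase, had a mean cover of 30.9 ± 7.16 kb (SD over 14 lists). KAT8 (16.7 ± 2.92 kb) and TADA3 (10.3 ± 2.28 kb) led the writers, and MLLT1 (18.2 ± 3.42 kb) and SMARCA4 (17.0 ± 4.63 kb) the readers. KAT7 (2.57 ± 0.941 kb) and SIRT6 (2.22 ± 0.776 kb) had the least cover among these other writers and erasers, close to EP300 and SIRT1, and the testis gene TAF1L had none.

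Summed over the members, cover was 31.1 kb at titer 32 and 58.4 kb at titer 1 with the fixed amount of antibody, and between 46138 and 64012 bp in the normalized arm. The 17 shared regions made up 73.0% to 81.6% of these bases in fixed antibody libraries and 70.6% to 84.6% in normalized libraries. Between titers 32 and 1 the shared regions grew from 25.4 to 44.0 kb and the other regions from 5.72 to 14.4 kb. Most of the lost bases at high titer thus lay in shared regions, which held most of the bases at either titer. Their share was 75.3% at titer 1 and 81.6% at titer 32, so the other regions lost proportionally more. No share over all genes is given. In the normalized arm the 0.31 µg library had the smallest cover in shared regions, 39.0 kb, and in other regions, 7.12 kb, while the remaining 6 libraries held 41.7 to 45.7 kb and 13.6 to 18.5 kb. No region in the windows was present in all 7 normalized lists and absent from the 5 fixed antibody lists of titer over 1, and none showed the reverse. The share over all merged regions is not given, so this absence does not set the members apart.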

How the data were processed

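H3K27ac ChIP-seq peak lists of 14 K562 libraries were analysed, and the 2 input libraries have no peak list. The authors sequenced 51 bp paired ends, and their methods describe peak calling per library with MACS2 in Partek Flow. The labels' processing notes name BWA 0.5.9, CASAVA 1.4 and hg38. The study's methods name another build, and peaks were placed on GRCh38 here. The deposited fold enrichment (a ratio of signal to control), and the deposited −log10 p-value and −log10 q-value were used as given. The lists reach a q-value of 5.0%, so peaks with −log10 q of at least 2 were kept (64083 to 82143 per library). For each library the study reports fewer peaks at an FDR of 1% than were kept here. The lists may therefore not come from the peak calling that the study describes. Exact permutation tests (5040 orders, 64 sign patterns) and Benjamini-Hochberg adjustment were run in Python 3.11.15 with numpy 2.4.6 and pandas 2.3.3 over all genes, and were tested on simulated data. RefSeq (GRCh38.p14) gave gene positions and promoters, and a start site was matched for 15811 of 19970 genes. No exon annotation of this build was used. An adjusted p under 0.05 was called. Named were the 9 members and, from each further list, the 2 genes with the highest and the 1 with the lowest mean covered length, of which 1 gene, and 1 marker gene, are not reported here. Promoters were printed for the members with the highest, median and lowest mean percentile of the promoter peak and for EP300 and CREBBP. Members and lists were chosen with earlier results of these data known. Alternatives comprised q-value limits, windows, rank correlation, a linear scale and leaving out each library.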

Additional observations from a re-analysis of the deposited data

Results flagged for a closer look

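Of 36 groups of 7 libraries tested (covered length and strongest fold enrichment of 9 members in each arm), 1 held a library far from the others. The strongest KAT2B peak in the normalized arm had a fold enrichment of 20.6 at 0.62 µg, against 14.1 to 16.5 in the other 6 libraries, a gap of 0.631 of the whole range, past Dixon's critical value for 7 libraries. Chance alone flags about 1 in 20 such groups. Without this library the normalized KAT2B values still lay above those of the fixed antibody arm, since the lowest of the normalized values, 14.1, came from another library.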

How the results depend on the processing

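Trends with titer depended on the window and on single libraries. For covered length against titer (7 members and 7581 genes called), the gene body alone gave 1 member and 4140 genes, 5 kb either side of the start site 3 members and 4476 genes, Spearman's rho 5050 genes, and peaks nearest to the gene's own start site, an alternative added after seeing the data, 3544 genes. Leaving out each fixed antibody library gave 0 to 6 members and 1678 to 6131 genes. For strongest fold enrichment against titer (8 members and 9392 genes), a linear titer scale gave 4 members and 3421 genes, 5 kb windows gave 6029 genes, and leaving out each library gave 5 to 7 members and 5625 to 8024 genes. In the matched comparison (5 members and 6201 genes), dropping the pairing by chromatin amount (no replicate block) and asking for non-overlapping arms left 1 member and 1297 genes, and 5 kb windows gave 3829 genes. Leaving out each amount gave 5 to 6 members and 6278 to 7699 genes. The regions in every list numbered 17 and were 11 in gene bodies alone. Separate arms in covered length were found for 0 members and 507 genes within 5 kb of the start site. The cause of these changes was not tested.

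Direction changed for members whose result was not called. The matched difference of HDAC2 was 25.3 bp with the full deposited lists, and that of HDAC1 was -189 bp in the gene body and -622 to 1090 bp when 1 amount was left out. In the normalized arm, r of covered length became -0.053 (HDAC3) and -0.10 (SIRT1) in the gene body, -0.083 (HDAC3) within 5 kb and -0.054 (KAT2A) on a linear scale, and r of fold enrichment became -0.26 (CREBBP) within 5 kb and 0.28 (SIRT1) on a linear scale. Leaving out 1 normalized library at a time moved r of covered length between -0.40 and 0.69 (KAT2A), -0.064 and 0.70 (HDAC1) and -0.20 and 0.66 (HDAC3), and r of fold enrichment between -0.70 and 0.39 (KAT2B), -0.11 and 0.69 (HDAC1), -0.13 and 0.64 (HDAC3) and -0.83 and 0.13 (SIRT1). Of the other alternatives for single members, 519 kept direction and call, 73 lost the call and 9 gained it. Read depth was not analysed here, so no counting interval is given.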
